A study of Mus musculus with 47 samples.

Results

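Solute carriers are membrane proteins that move sugars, amino acids, ions, vitamins, nucleotides and metabolites across the plasma membrane and the membranes of organelles, and their genes carry the symbol Slc, a family number and a letter with a member number. The genes described here are those measured in mouse liver whose single platform symbol starts with Slc and a number, without the zinc carriers of the Slc30a and Slc39a families and without Slc40a1, Slc11a2 and Slc10a1. This rule uses names alone and no measured value. It gave 116 genes of 33 families out of 6889 genes with a single symbol, measured by 121 transcripts of the 9815 tested, and 15 genes were left out by the rule. Where a gene had several transcripts the brightest stood for it. A symbol does not make a carrier, and 2 of the 116 are none: Slc6a19os is an antisense RNA and Slc9a3r1 is a scaffold protein that holds carriers at the apical membrane.

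In the liver, carriers bring amino acids, sugars and drugs from the blood into the hepatocyte, exchange metabolites between the cytosol and the mitochondrion for urea synthesis and glucose production, and feed nucleotide sugars and ATP into the endoplasmic reticulum and Golgi for the making of secreted glycoproteins. Facilitated carriers let solutes run down a gradient, cotransporters use the gradient of sodium or protons, and exchangers trade a solute for another. A transcript level is not a transport rate, since many carriers are regulated by trafficking to the membrane.

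The livers came from female hairless SKH:QS mice of an in-bred colony, an immune-competent strain, killed in week 36 after 30 treatments. Mice had no sunscreen (Control) or were given on the skin a commercial sunscreen with ZnO nanoparticles (ZnO), one with TiO2 nanoparticles and organic filters together (TiO2) or one with organic filters only (Organic), each without UVR (-UVR) or followed by 29 kJ/m2 of UVR per treatment (+ UVR), with every mouse collared during treatment and washed afterwards. Each of the 8 groups had 6 arrays, 1 mouse per array, except ZnO + UVR with 5, which makes 47 arrays. The study's methods describe a single cage for each treatment group while the sample labels give individual housing. If the cages are right, cage and treatment cannot be told apart. All levels below are log2 values from robust multi-array average (RMA), the number of arrays limits their precision, and a level of one gene cannot be set against that of another as an amount, because probes differ in brightness. Because each array was made from a whole piece of liver, fewer cells of a type and less RNA per cell cannot be told apart.

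The tissue label held: the 10 measured of 19 hepatocyte markers averaged 11.70 to 11.90 in the Control-UVR mice. 1 array stood apart over all transcripts, and another is described here for its levels of single carriers. On Organic-UVR replicate 1 values rose by 0.772 per unit of the transcripts' mean level (the array's slope), so that its bright transcripts were dimmer and its dim ones brighter than elsewhere, while the slopes of the rest ran from 0.895 upwards. Of the carrier genes, 24.1% lay more than 1 log2 unit from the mean of its group mates (22.1% of all transcripts). ZnO-UVR replicate 4 had an ordinary slope of 1.06. In it 3 carrier genes lay more than 1 unit from the mean of its group mates, all higher. This is 2.59% of the carrier genes, against 1.61% of all transcripts. Several of the values that these arrays move are also given without them.

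The 114 genes other than Slc6a19os and Slc9a3r1 were put into 9 substrate classes by family number, not by the substrate of each gene. A class can therefore hold genes with other substrates or places in the cell. Slc6a3 and Slc6a4, carriers of dopamine and serotonin, count among the amino acid carriers, and Slc35b1 among the nucleotide sugar carriers. The largest were 23 genes for sugars and energy substrates, 22 for amino acids and peptides and 17 for ions and acid-base equivalents. The 15 genes of family 25 formed the class of mitochondrial carriers, and the 10 of family 35 that of nucleotide sugar carriers. Smaller classes were 9 carriers of organic ions and drugs, 7 organic anion and vesicular carriers of families 17 and 18, 7 of vitamins, nucleosides and choline and 4 of metals and heme. Of the 116 genes, 62 lay above the median level of all transcripts, 5.24. The classes differed in this respect: 14 of 15 mitochondrial carriers lay above it against 5 of 17 ion carriers and 7 of 22 amino acid carriers. The typical spread between mice of a group (SD) was 0.25 over the carrier genes, close to 0.27 over all transcripts.

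The 10 brightest carrier genes are given here by signal, which does not rank their amounts. The measured carriers lay on chromosomes 1, 10 to 16 and X only, so carriers on other chromosomes were not ranked. Slc38a4 and Slc38a2, sodium-coupled carriers of small neutral amino acids, had mean levels of 12.20 and 9.53. Slc25a3, the mitochondrial phosphate carrier, had 10.13, and Slc25a11, the oxoglutarate carrier of the malate-aspartate shuttle, 8.48. Slc16a7, a high-affinity carrier of pyruvate and lactate, had 10.12. Slc47a1, which extrudes organic cations into bile and urine, had 8.67, and Slc17a3 and Slc17a2, anion carriers of the sodium phosphate family, had 8.61 and 8.47. Slc35b1, named for its kinship to nucleotide sugar carriers and known as an ATP/ADP exchanger of the endoplasmic reticulum, had 8.72. Slc25a5, an ADP/ATP carrier, had 9.42, but its transcript number lies among those of chromosome 1 while the gene lies on chromosome X, so the probes may read a near-identical copy. Slc38a4 was steady, with a within-group SD of 0.17 and group means between 12.07 and 12.28.

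Which carriers changed with the sunscreens was asked first by pooling the 4 groups given TiO2 or organic sunscreen, whose products both hold organic filters, against the 4 others. Of the 116 genes 6 passed an adjusted p of 0.1, 3 lower and 3 higher. This is 5.17% of them, near the 4.94% of all transcripts called in this comparison (percent called over 9815), so the count itself is not a result about carriers. Slc17a4, Slc35b1 and Slc45a3 were lower, and the glucose carriers Slc2a4 and Slc2a12 and the glutamate carrier Slc1a3 were higher. All 6 differences were below 0.45 on the log2 scale, and for all 6 the mice of the 2 sides overlapped.

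**Figure D1:**
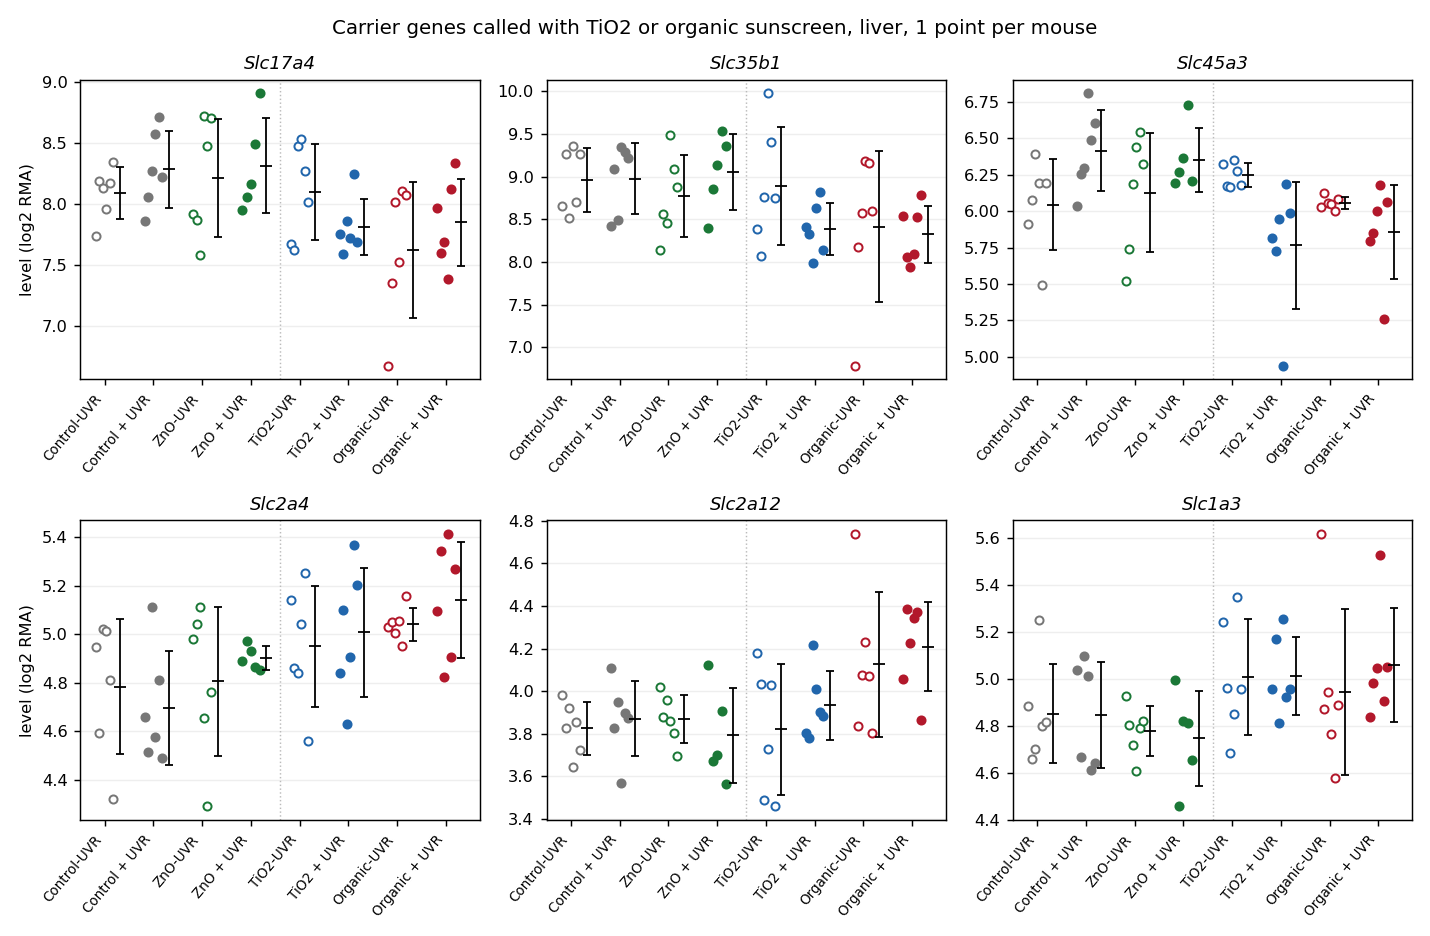
Level (log2 RMA, vertical axis) of the 6 called carrier genes in each of the 8 groups; 1 point per mouse, open without UVR and filled with UVR, and black bars give the mean and SD. Groups right of the dotted line received TiO2 or organic sunscreen: the upper panels lie lower there (Slc17a4 by 0.39, Slc35b1 by 0.44, Slc45a3 by 0.26) and the lower panels higher (Slc2a4 by 0.24, Slc2a12 by 0.19, Slc1a3 by 0.20), with overlap of mice in each panel.

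Slc17a4 encodes an organic anion carrier of liver and gut and lies on chromosome 13 from 23897879 to 23915009 (GRCm38.p6), next to its relatives Slc17a1, Slc17a3 and Slc17a2. In the 24 mice given TiO2 or organic sunscreen its level ran from 6.68 over a median of 7.81 to 8.53. In the 23 other mice it ran from 7.58 over 8.17 to 8.90. Thus 19 of the 24 mice lay below the median of the others, and the fitted difference was -0.39 ± 0.08 (SE), a fold of 0.764, with an adjusted p of 0.00863. The groups did not share in this evenly. Group means were 8.09 ± 0.21 (SD, n = 6) in Control-UVR and 8.10 ± 0.39 (n = 6) in TiO2-UVR, against 7.81 ± 0.23 (n = 6) in TiO2 + UVR, 7.62 ± 0.56 (n = 6) in Organic-UVR and 7.85 ± 0.36 (n = 6) in Organic + UVR. The 23 other mice averaged 8.22, and the highest group mean was 8.31, so Control-UVR lay below the average of its side. TiO2-UVR differed from Control-UVR by 0.01 (95% interval -0.33 to 0.35). Slc17a4 was also the 1 carrier gene called in the F test over all 8 groups, with an adjusted p of 0.0630, where 1.93% of all transcripts were called. That F call was lost when any of ZnO + UVR replicates 4 and 5 or Organic-UVR replicates 1, 2 and 4 was left out, with F values no lower than 3.79 against 4.45 with all arrays.

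The neighbours of Slc17a4 in the same gene cluster were not called. In the same pooled comparison Slc17a3 differed by -0.15 (95% interval -0.33 to 0.03) and Slc17a2 by 0.06 (-0.11 to 0.22). Slc17a1, a sodium phosphate carrier named here after its values were seen, differed by -0.09 (-0.26 to 0.08). Whether Slc17a4 differed from these neighbours in its response was not tested.

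Slc35b1 showed the largest called difference. Its level ran from 6.78 over a median of 8.53 to 9.98 in the 24 mice given TiO2 or organic sunscreen. It ran from 8.14 over 9.09 to 9.53 in the 23 others. Of the 24 mice, 20 lay below the median of the others, though the highest value of all belonged to a TiO2-UVR mouse. The difference was -0.44 ± 0.11, a fold of 0.736, with an adjusted p of 0.0219. Against Control-UVR, with 8.96 ± 0.37 (n = 6), the differences were -0.57 in TiO2 + UVR, -0.55 in Organic-UVR and -0.64 in Organic + UVR, while TiO2-UVR differed by -0.07 (95% interval -0.50 to 0.37). Organic-UVR replicate 1 lay at 6.78 and its group mates from 8.18 to 9.18, so the Organic-UVR difference rests in part on that array. The pooled difference ran from -0.48 to -0.38 over the fits that left out 1 array. Slc35b1 was also among the 5 carriers that varied most within groups, with an SD of 0.53, or 0.45 without Organic-UVR replicate 1. Slc17a4 and Slc35b1 kept their call in the pooled comparison in each of 47 fits that left out 1 array. In the fit with no replicate block Slc17a4 kept its call (adjusted p = 0.0699), and those of Slc35b1 (0.132), Slc45a3 (0.138), Slc2a12 (0.174) and Slc1a3 (0.148) were lost, as was the F call of Slc17a4 (0.479).

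Slc45a3, a putative sugar carrier best known as the prostate protein prostein, had a different pattern. Its level had a median of 6.05 in the 24 mice and 6.26 in the 23 others, with 21 of 24 below the latter, and the difference was -0.26 ± 0.08 (adjusted p = 0.0836). Here the untreated level was not the higher one: Control-UVR had 6.04 ± 0.31 (n = 6) and Organic-UVR 6.06 ± 0.04 (n = 6), while Control + UVR had 6.42 ± 0.28 (n = 6) and ZnO + UVR 6.35 ± 0.22 (n = 5). TiO2 + UVR, with 5.77 ± 0.44 (n = 6), and Organic + UVR, with 5.86 ± 0.33 (n = 6), were the lowest. TiO2-UVR, with 6.25 ± 0.08 (n = 6), lay above Control-UVR and ZnO-UVR, which had 6.13 ± 0.41 (n = 6), against the direction of the pooled difference. TiO2 + UVR replicate 4 lay at 4.94, below its 5 group mates at 5.73 to 6.19, and without it the call was lost.

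Among the 3 called higher, Slc2a4, the insulin-responsive glucose carrier of muscle and fat, ran from 4.56 over a median of 5.05 to 5.41 in the 24 mice. It ran from 4.29 over 4.85 to 5.11 in the others. The difference was 0.24 ± 0.07 (fold 1.18, adjusted p = 0.0610), and 19 of 24 mice lay above the others' median. Control-UVR had 4.78 ± 0.28 (n = 6), and all of TiO2-UVR, TiO2 + UVR, Organic-UVR and Organic + UVR had higher means, from 4.95 to 5.14. The call was lost without Control-UVR replicate 6 (adjusted p = 0.109) and without ZnO-UVR replicate 4.

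Slc2a12, another facilitated glucose carrier, and Slc1a3, a sodium-coupled glutamate and aspartate carrier, had smaller differences of 0.19 ± 0.06 (adjusted p = 0.0772) and 0.20 ± 0.07 (0.0868). For Slc2a12 the higher levels lay in the organic groups, with 4.13 ± 0.34 (n = 6) and 4.21 ± 0.21 (n = 6) without and with UVR against 3.83 ± 0.12 (n = 6) in Control-UVR, and TiO2-UVR had 3.82 ± 0.31 (n = 6). For Slc1a3 all 4 groups lay between 4.94 and 5.06 and the other 4 between 4.75 and 4.85. Organic-UVR replicate 1 was the highest mouse of its group for both, at 4.74 for Slc2a12 and at 5.62 for Slc1a3, and neither call held without it. These 2 calls and that of Slc45a3 were lost in 17, 26 and 19 of the 47 fits without 1 array, with no change of direction.

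The RefSeq promoter table held an entry for 93 of the 116 genes, among them 4 of the 6 called. The 250 bases before the start of Slc35b1 (chromosome 11, 95384606 to 95384855, plus strand) and of Slc1a3 (chromosome 15, 8710808 to 8711057, minus strand), both GRCm38.p6 and read 5′ to 3′, are shown as a gene that was lower and one that was higher. Capitals mark matches on either strand to CACGTG (the E-box read by the circadian activators), TTATGNAA (the D-box), the CCAAT box, the TATA motif TATAAA or the GC box motif GGGCGG.
Slc35b1: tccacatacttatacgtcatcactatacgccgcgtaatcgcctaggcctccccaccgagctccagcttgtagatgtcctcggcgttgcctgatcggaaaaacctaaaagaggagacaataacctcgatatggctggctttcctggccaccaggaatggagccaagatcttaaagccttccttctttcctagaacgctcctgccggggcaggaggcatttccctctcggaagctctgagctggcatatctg
Slc1a3: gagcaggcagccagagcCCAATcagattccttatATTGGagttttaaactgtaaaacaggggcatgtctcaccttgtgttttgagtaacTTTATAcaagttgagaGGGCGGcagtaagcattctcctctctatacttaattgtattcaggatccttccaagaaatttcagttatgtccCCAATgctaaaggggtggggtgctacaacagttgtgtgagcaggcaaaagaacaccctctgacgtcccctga

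The Slc35b1 stretch held none of the 5 motifs and the Slc1a3 stretch held 5 matches, 3 of them to CCAAT. The E-box motif stood in 7.89% of the 114 promoter entries of carrier genes and in 6.02% of all 32851, the D-box motif in 3.51% and 3.07%, the CCAAT box in 36.0% and 33.8%, the TATA motif in 11.4% and 12.4%, and the GC box motif in 50.0% and 32.7%. Neither the E-box nor the D-box motif stood in the entries of the 4 called genes. A match describes letters and is not a binding site.

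The direction of the 6 called genes went with their level. The 3 higher genes lay below the median level of all transcripts and the 3 lower genes above it, and the same split ran through the whole table. The median pooled difference was 0.06 over the 4907 dimmer transcripts and -0.05 over the brighter ones, with the carriers at 0.08 (54 genes) and -0.05 (62 genes). Beside it, the slope of the arrays averaged 0.987 in the TiO2 and organic groups and 1.01 in the others. Without Organic-UVR replicate 1 the slope in the TiO2 and organic groups averaged 0.997, and the medians over all transcripts were 0.05 and -0.03. With that slope as a covariate Slc17a4 (adjusted p = 0.0286) and Slc35b1 (0.0872) kept their call, and Slc45a3 (0.133), Slc2a4 (0.143), Slc2a12 (0.323) and Slc1a3 (0.382) did not.

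**Figure D2:**
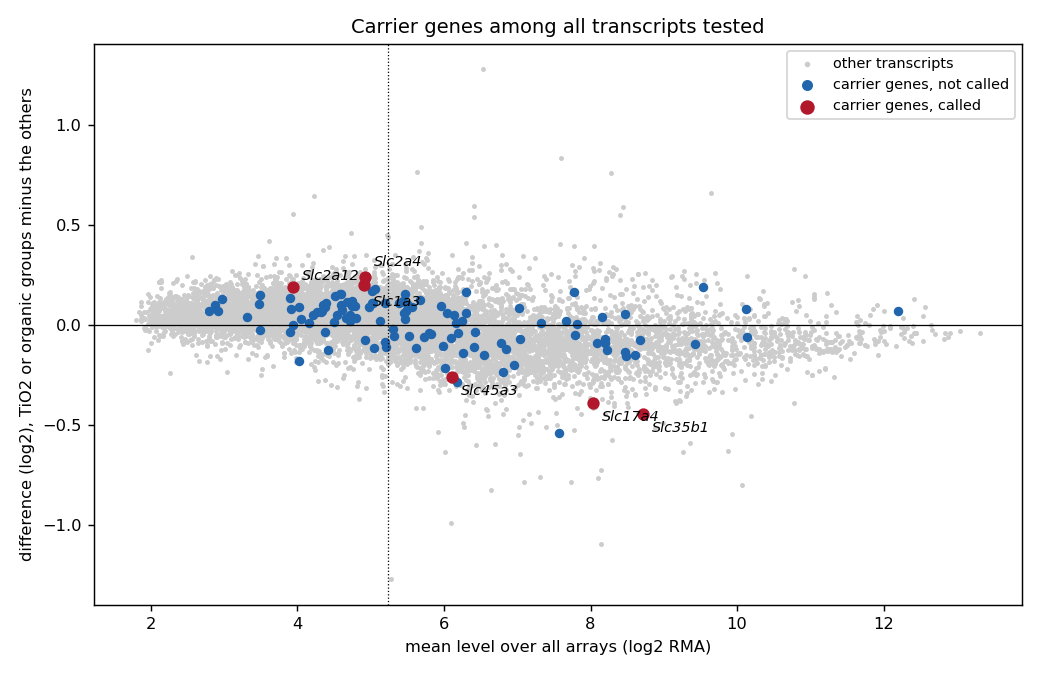
Pooled log2 difference of the groups given TiO2 or organic sunscreen (vertical axis) against the mean level over all arrays (log2 RMA, horizontal axis); grey points are all other transcripts, blue points carrier genes and red points the 6 called, and the dotted line marks the median level, 5.24. The called genes left of it lie above 0 and those right of it below 0, as most transcripts do.

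Other measures moved with the same 4 groups. The clock genes Npas2, an activator, and Ciart, a repressor, differed by -1.27 (adjusted p = 8.51e-05) and 1.28 (0.00700). Of 28 measured markers of cell types that a liver piece could hold, 4 were called, all lower, beside 4.94% of all transcripts. They were the hepatocyte lectin Mbl1 (-0.37), the hepatocyte protein Itih1 (-0.24), the endothelial Pecam1 (-0.28) and the bile duct regulator Sox9 (-0.24). The other markers of their lists were not called. For bile duct, Krt7 differed by 0.16 and Krt19 by 0.08, and for endothelium, Stab1 by -0.0003 and Stab2 by -0.03. Mean levels of the 10 hepatocyte markers ran from 10.90 to 12.03 in Organic-UVR, or from 11.62 without replicate 1, and from 11.70 to 11.90 in Control-UVR. Without that array Itih1 (adjusted p = 0.122) and Pecam1 (0.128) were no longer called. Their part in the differences of the carrier genes was not tested.

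Below the threshold in the pooled comparison lay a pair of further carriers. Slc41a2, a magnesium carrier, differed by -0.54 ± 0.19 (adjusted p = 0.110), the largest difference of any carrier gene in either direction. Slc36a1, which exports amino acids from the lysosome with protons and is named here after its values were seen, differed by -0.28 ± 0.10 (0.106). For Slc38a1, a glutamine carrier with 2 transcripts, the transcripts disagreed: the brighter differed by -0.07 (adjusted p = 0.648) and the dimmer, at a level of 3.70, by 0.34 (0.0174). It was not counted among the 6.

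Each treated group was also set against Control-UVR, whose 6 mice are shared by all 7 comparisons. No carrier gene was called in any of them. At an unadjusted p under 0.05 lay 20 carrier genes in Control + UVR (17.2% of the 116, against 12.8% of all transcripts), 2 in ZnO-UVR (1.72% against 1.52%) and 2 in ZnO + UVR (1.72% against 2.81%). There were 6 in TiO2-UVR (5.17% against 3.86%) and 9 in TiO2 + UVR (7.76% against 10.2%). There were 20 in Organic-UVR (17.2% against 19.1%) and 14 in Organic + UVR (12.1% against 17.1%). Without Organic-UVR replicate 1 the Organic-UVR count was 3 (2.59% against 9.18%). The share of all transcripts called at the adjusted threshold was 0.0509% in Control + UVR, 0% in ZnO-UVR, ZnO + UVR and TiO2-UVR, 0.693% in TiO2 + UVR, 3.27% in Organic-UVR and 1.65% in Organic + UVR. The 95% interval of a carrier's difference from Control-UVR typically reached 0.29 to either side, so for a typical carrier a smaller difference could not be told from 0. The widest interval in Control + UVR reached 0.75 to either side.

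With UVR alone, the smallest p among the 116 genes belonged to Slc6a19os, which is no carrier but the antisense RNA at Slc6a19, which encodes a neutral amino acid carrier. It ran from 3.61 over a median of 3.85 to 4.06 in Control-UVR and from 3.99 over 4.28 to 4.69 in Control + UVR. The difference was 0.51 ± 0.13 (adjusted p = 0.170), and it passed the threshold in 2 of 47 fits without 1 array, the lowest p being 0.0688 without Control + UVR replicate 2. Next came Slc16a7, the pyruvate and lactate carrier, which ran from 10.08 to 10.29 in Control-UVR and from 9.53 to 10.24 in Control + UVR, a difference of -0.37 ± 0.13 (0.273).

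In the groups given ZnO sunscreen the smallest p belonged, without UVR, to Slc25a37 and Slc4a1, described further on, and with UVR to the amino acid carrier Slc36a2 and the magnesium carrier Slc41a1. Slc36a2 lay from 4.23 to 4.51 in Control-UVR and from 4.56 to 4.83 in ZnO + UVR, so these small groups did not overlap, yet the fitted difference was 0.30 ± 0.14 with an adjusted p of 1.00. Slc41a1 differed by -0.35 ± 0.17 (adjusted p = 1.00).

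With TiO2 sunscreen and no UVR, Slc43a2, a carrier of large neutral amino acids, ran from 4.32 to 4.76 in Control-UVR and from 4.70 to 5.11 in TiO2-UVR, a difference of 0.37 ± 0.11 (adjusted p = 0.968). Slc34a1, the phosphate carrier of the kidney tubule, differed by 0.36 ± 0.15 (0.968). With TiO2 sunscreen and UVR, Slc41a2 ran from 6.65 over 6.98 to 7.31, against 6.81 over 7.83 to 9.40 in Control-UVR. Its difference of -0.98 ± 0.37 (adjusted p = 0.333) became -0.66 without Control-UVR replicate 2, the highest mouse, and -1.20 without Control-UVR replicate 5, the lowest.

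With organic sunscreen and no UVR, the smallest p belonged to Slc17a4 (-0.46 ± 0.17, adjusted p = 0.135) and to Slc25a21, the mitochondrial oxodicarboxylate carrier (-0.55 ± 0.20, 0.142). Without Organic-UVR replicate 1 these differences were -0.33 and -0.39. Both passed the threshold without Organic-UVR replicate 3, at 0.0698 and 0.0835. With organic sunscreen and UVR, Slc16a13, a monocarboxylate carrier, ran from 4.61 to 4.98 in Control-UVR and from 4.80 to 5.51 in Organic + UVR, a difference of 0.47 ± 0.14 (adjusted p = 0.106). Slc2a12 differed there by 0.38 ± 0.12 (0.113). This comparison depended on single arrays: 9 carriers were called without Organic + UVR replicate 1, Slc16a13 (adjusted p = 0.0342) and Slc2a12 (0.0339) among them, against 0 with all arrays. The count was 6 when Organic-UVR replicate 1 was left out and 4 when Control-UVR replicate 5 was. Without Organic-UVR replicate 1, 14.7% of the carrier genes passed the unadjusted threshold in Organic + UVR, against 20.9% of all transcripts. The shares of all transcripts called in these fits are not given, so the counts are not a result about carriers.

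By substrate class, the medians of the differences from Control-UVR were small. The ion and acid-base carriers had the highest median in Organic-UVR, 0.21, with 16 of 17 above 0, and the mitochondrial carriers the lowest, -0.15, with 11 of 15 below 0. Without Organic-UVR replicate 1 these medians were 0.12, with 15 of 17 above 0, and -0.05, with 10 of 15 below 0. In Control + UVR the same classes had medians of 0.15 and -0.13. In the pooled comparison the mitochondrial carriers had 12 of 15 below 0 and none called, and the carriers of sugars and energy substrates had 18 of 23 above 0. Of this class 3 were called, Slc2a4 and Slc2a12 higher and Slc45a3 lower, beside 4.94% of all transcripts. Over all transcripts in the pooled comparison 5657 of 9815 lay above 0. Of the 4908 at or above the median level, 3176 lay below 0. The ion carriers are mostly dim and the mitochondrial carriers mostly bright. Over all transcripts in Organic-UVR the median difference was 0.11 for those below the median level and -0.12 for those above it, and without replicate 1 it was 0.05 and -0.03.

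**Figure D3:**
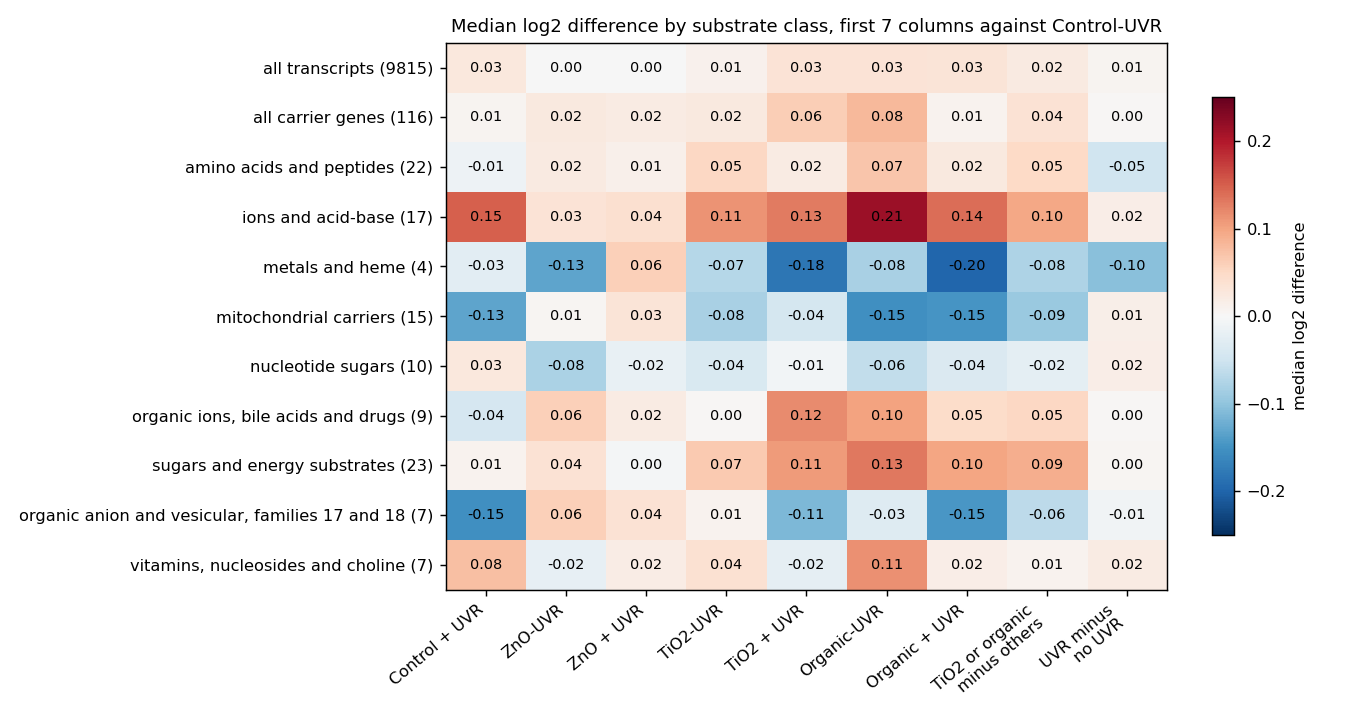
Median log2 difference (colour and printed value) of each substrate class, with its number of genes, in the 7 comparisons with Control-UVR and the 2 pooled comparisons, beside all transcripts and all carrier genes. The ion and acid-base row is red in Control + UVR (0.15) and Organic-UVR (0.21) where the mitochondrial row is blue (-0.13 and -0.15, all arrays included), and both are near 0 in the ZnO columns.

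Pooled over products, UVR itself moved no carrier past the threshold: 0 of 116 were called, as were 0% of all transcripts, and 7 carrier genes (6.03%) were under an unadjusted p of 0.05, against 6.80% of all transcripts. The smallest p belonged to Slc6a4, the serotonin carrier that clears serotonin from the synapse and into platelets. Its level ran from 4.10 over a median of 4.56 to 4.86 in the 23 mice with UVR and from 4.43 over 4.78 to 5.21 in the 24 without. Of the 23 mice, 20 lay below the median of those without UVR, and the difference was -0.25 ± 0.06 (adjusted p = 0.632). Slc25a35, a mitochondrial carrier of unsettled substrate, differed by -0.20 ± 0.08 (0.727).

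Whether the effect of UVR differed between products was asked with an F test, which called no carrier gene and 0.387% of all transcripts. The smallest p belonged to Slc5a3, the sodium-coupled myo-inositol carrier (adjusted p = 0.209), and to Slc25a32, the mitochondrial carrier of folate and flavin (0.233). Slc25a32 ran from 6.98 over a median of 7.34 to 7.83 in TiO2-UVR and from 7.91 over 8.35 to 8.69 in TiO2 + UVR, so that these groups did not overlap. UVR minus no UVR was 0.93 ± 0.24 with the TiO2 sunscreen, against -0.22 ± 0.24 without sunscreen, -0.37 ± 0.25 with ZnO and -0.12 ± 0.24 with the organic product. For Slc5a3 it was 0.25 ± 0.12 with TiO2 and -0.47 ± 0.12 with the organic product, where levels ran from 5.62 to 6.26 without UVR and from 5.06 to 5.92 with it. Organic-UVR replicate 1 was the lowest mouse of its group for both, at 6.47 for Slc25a32 and 5.62 for Slc5a3. Without it the UVR difference with the organic product was -0.42 ± 0.21 for Slc25a32 and -0.54 ± 0.12 for Slc5a3, and that with TiO2 remained 0.93 and 0.25. Without it both genes also passed the F test, with adjusted p-values of 0.0111 for Slc25a32 and 0.0769 for Slc5a3. The values within each product are a description, chosen after the F test.

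**Figure D4:**
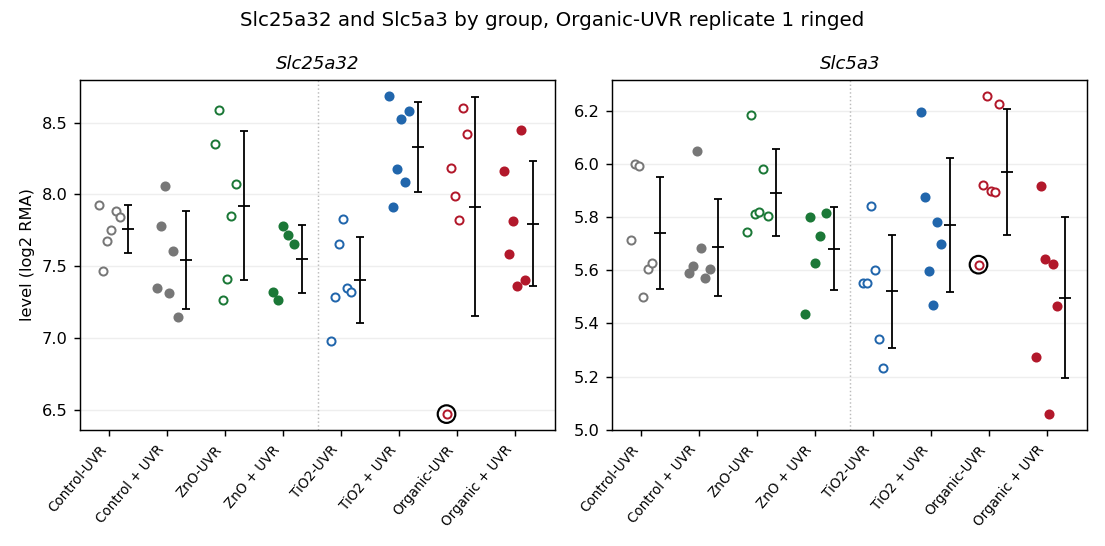
Level (log2 RMA) of Slc25a32 and Slc5a3 in each group; 1 point per mouse, open without UVR and filled with UVR, black bars give mean and SD, and the ringed point is Organic-UVR replicate 1. For Slc25a32 the 6 TiO2 + UVR mice (7.91 to 8.69) lie above the 6 TiO2-UVR mice (6.98 to 7.83), and the ringed mouse lies far below its group mates.

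A single mouse carried the leading ZnO-UVR values. Slc4a1 encodes band 3, the anion exchanger of the red cell membrane, and Slc25a37 encodes mitoferrin 1, which brings iron into mitochondria for heme synthesis and is best known from red cell precursors. In ZnO-UVR replicate 4 Slc4a1 was at 8.16, while its 5 group mates lay from 5.09 to 5.29 and the mice of all other groups from 4.88 to 5.69. Slc25a37 was at 7.93 in that mouse and from 6.37 to 6.85 in its group mates. The fitted differences of ZnO-UVR from Control-UVR, 0.53 ± 0.25 for Slc4a1 and 0.36 ± 0.17 for Slc25a37 (adjusted p = 1.00 for both), fell to 0.03 and 0.11 without this mouse.

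**Figure D5:**
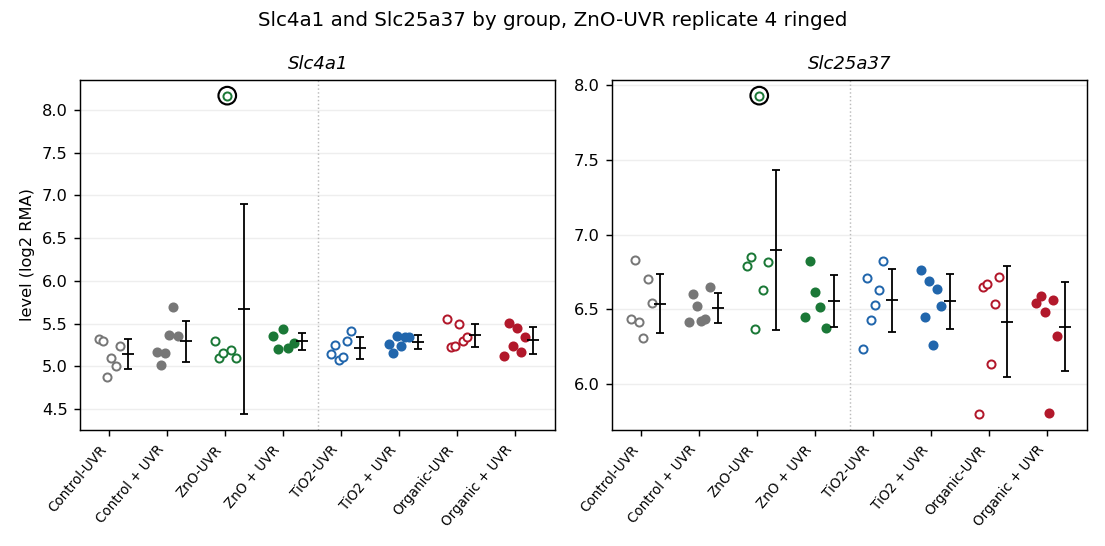
Level (log2 RMA) of Slc4a1 and Slc25a37 in each group; 1 point per mouse, open without UVR and filled with UVR, black bars give mean and SD, and the ringed point is ZnO-UVR replicate 4. The ringed mouse lies at 8.16 for Slc4a1 and 7.93 for Slc25a37, above every other mouse.

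Further carriers stood out in the same mouse, named after their values were seen. Slc25a10, the mitochondrial dicarboxylate carrier, was at 7.86 against 6.46 to 6.81 in its group mates. Slc48a1, which releases heme from the lysosome and is known from macrophages that digest red cells, was at 7.75 against 6.57 to 6.98. Slc38a1, the glutamine carrier, was at 5.86 against 4.58 to 5.43, and Slc35b1 at 9.49 against 8.14 to 9.09. The measured markers of macrophages, endothelial cells and lymphocytes were higher too. Of the macrophage markers, Marco was at 7.09 against 4.38 to 4.92, Cd68 at 8.84 against 6.78 to 7.52 and Timd4 at 7.60 against 6.35 to 7.14, which makes 3 of the 3 measured, with a median deviation of 1.72. The 3 measured endothelial markers lay above the mean of the group mates by a median of 0.38, among them Pecam1 at 7.03 against 5.68 to 6.26, and the 2 measured lymphocyte markers by a median of 0.30. Of the erythroid list 0 of 7 genes were measured by a transcript with a single symbol. The 10 hepatocyte markers of that mouse had a median deviation of 0.09 from its group mates, with 6 above their mean. Among these Mbl1 was at 8.76 against 7.4 to 8.58. The median deviation was 0.02 over 3 bile duct markers and -0.01 over 5 stellate and fibroblast markers. The 1 adipose marker deviated by -0.42 and the 1 pancreas marker by -0.09. As 1 mouse has no replicate, no test was made, and the part of these cell types in the carriers' levels was not tested.

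The carriers that varied most between mice of a group were Slc41a2 (SD 0.73), Slc25a47, a mitochondrial carrier known for its expression in liver (0.55), Slc25a11 (0.53), Slc35b1 (0.53) and Slc38a2 (0.50). Without Organic-UVR replicate 1 the SDs of Slc25a11, Slc35b1 and Slc38a2 were 0.47, 0.45 and 0.45, and only Slc41a2, Slc25a47 and Slc25a11 stayed among the 5 highest. Across all arrays Slc41a2 ran from 5.82 to 9.40 and Slc25a47 from 6.77 to 9.29, and the highest Slc38a2 level was 10.54. Organic-UVR replicate 1 was the lowest array for Slc25a11, at 6.75, and for Slc35b1, at 6.78. No group mean of Slc25a47 lay outside 7.76 to 8.45, and those of Slc38a2 lay between 9.18 and 9.85, within their spread between mice.

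Of the brightest members of families with at least 4 genes, those not yet described kept to narrow ranges of group means. Slc22a23, an orphan of the organic cation family, reached 7.82 at most in a group, and Slc9a3r1 lay between 8.05 and 8.32. Slc26a10, an anion exchanger relative, lay between 5.50 and 5.78 and Slc6a3, the dopamine carrier, between 5.08 and 5.29. None of the 4 was called in any comparison.

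Other transport proteins were read from a separate list of ATP-binding cassette pumps, organic anion carriers of the Slco series, sodium pump subunits, aquaporins and carrier partners, of which 25 of 72 were measured. In the pooled sunscreen comparison 2 of the 25 were called, beside 4.94% of all transcripts, and both were lower. Abca8b, a lipid pump relative, differed by -0.29 ± 0.07 (adjusted p = 0.0174). Abcf3, a cytosolic member of the family with no transport domain, differed by -0.30 ± 0.10 (0.0958). Abca8b was also lower in Organic-UVR, by -0.46 ± 0.14 (0.0747), where 3.27% of all transcripts were called. Both Abca8b and Abcd2 were called in the F test over the 8 groups, at 0.0299 and 0.0100, where 1.93% of all transcripts were called. Abcd2, which brings fatty acyl-CoA into peroxisomes, was lower in Control + UVR by -0.85 ± 0.19 (0.0789), where 0.0509% of all transcripts were called. It was also called in the F test of the UVR effect differing between products (0.00828), as were 0.387% of all transcripts. In these 25 genes no other call was made against Control-UVR or in the comparison of UVR with no UVR.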

How the data were processed

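RNA from the livers of 47 mice had been hybridised to Affymetrix Mouse Gene 1.0 ST arrays. The authors deposited log2 values after RMA, the method that the submitters' processing notes name. The study removed batch effects, but whether these values include that step is not given in the sources used here. Of 16383 probesets, 6568 controls were left out and 9815 transcripts were tested. The table held 0 columns that could not be mapped to a sample. Symbols came from the platform annotation, and all 116 members matched RefSeq (GRCm38.p6).

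A linear model held all 8 groups and the replicate number as a block (34 residual degrees of freedom). It was fitted with limma 3.58.1 in R 4.3.3. The block was used because the methods put 1 chip of each group in a batch. The labels give only a biological replicate number, and whether that number is the batch is not known. p-values were adjusted by Benjamini-Hochberg across the 9815 transcripts, a call needed an adjusted p under 0.1, and intervals are 95%. p-values measure the spread between these mice. Genes named are the 10 brightest, the called or, in a comparison without calls, the 2 with the smallest p, the 5 with the largest SD within groups and the brightest of families with at least 4 members. Among other transport proteins those called are named. The members and lists were chosen with earlier results of these data known. The fit was tested on simulated data. Alternatives were no block, the compared groups alone, quantile normalization, a filter on dim transcripts, array weights, the array slope as a covariate, all transcripts of a gene and leaving out each array.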

Additional observations from a re-analysis of the deposited data

Results flagged for a closer look

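Among 272 sets of a named carrier gene in a group of mice, 22 (8.09%) had a mouse far from its group mates by Dixon's ratio at the 95% level, and chance gives about 1 in 20. Of these, 10 fell on Organic-UVR replicate 1. That mouse was the highest of its group for Slc16a13 (5.76, others 4.91 to 5.05), Slc1a3 (5.62), Slc26a10 (6.42), Slc36a2 (5.19) and Slc6a3 (6.03). It was the lowest for Slc22a23 (6.71), Slc25a3 (8.96), Slc25a32 (6.47), Slc25a5 (8.13, others 9.25 to 9.61) and Slc9a3r1 (7.29).

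ZnO-UVR replicate 4 was the highest of its group for Slc4a1 (8.16), with the largest ratio of all, 0.935, and for Slc25a37 (7.93). Control + UVR replicate 1 was the lowest for Slc17a3 (7.87), Slc22a23 (6.08, others 7.41 to 8.01) and Slc25a3 (9.70), and Control + UVR replicate 3 the highest for Slc5a3 (6.05).

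TiO2 + UVR replicate 4 was the lowest for Slc22a23 (6.90), Slc45a3 (4.94) and Slc9a3r1 (7.49). Organic + UVR replicate 4 was the lowest for Slc17a3 (7.57) and Slc25a37 (5.81) and the highest for Slc1a3 (5.53).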

How the results depend on the processing

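No called carrier gene changed direction under any alternative. Of the 361 values of called genes under other settings 278 kept their call and 83 lost it. Called carrier genes in the pooled sunscreen comparison numbered 6 and became 2 with no replicate block, 2 with quantile normalization and 3 with the array slope as a covariate. The F test over the 8 groups went from 1 to 0 with no block, 5 with quantile normalization, 4 with the filter on dim transcripts, 10 with array weights and 6 with the slope. The F test of the UVR effect differing between products went from 0 to 3 with quantile normalization, 4 with array weights and 4 with the slope. Against Control-UVR, counts of 0 became 2 in Organic-UVR and 3 in Organic + UVR with the filter on dim transcripts. With array weights they became 2 in Control + UVR, 2 in TiO2 + UVR, 5 in Organic-UVR and 10 in Organic + UVR, and UVR pooled gave 2. TiO2 + UVR gave 1 with the slope and 1 with the compared groups alone. The shares of all transcripts called in these fits, and in those without 1 array, are not given. The counts are thus not a result about carriers. The causes were not tested.

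Leaving out each array gave 2 to 12 in the pooled comparison, and 12 arrays moved the count by over 1.5 times. It was 12 without Organic + UVR replicate 1, 11 without TiO2 + UVR replicate 1, 2 without ZnO-UVR replicate 4, and 3 without Control-UVR replicate 6, Control + UVR replicate 2, ZnO-UVR replicate 5 or 6, TiO2-UVR replicate 2 or 5, TiO2 + UVR replicate 4 or 6, or Organic + UVR replicate 2. The F test over groups gave 0 to 5, with 0 without ZnO + UVR replicate 4 or 5 or Organic-UVR replicate 2 or 4, 5 without Organic-UVR replicate 1 or Organic + UVR replicate 1, and 2 to 4 without 11 other arrays. The ranges were 0 to 2 for the F test between products, 0 to 1 in Control + UVR, 0 to 2 in Organic-UVR, 0 to 9 in Organic + UVR, and 0 to 0 in ZnO-UVR, ZnO + UVR, TiO2-UVR, TiO2 + UVR and UVR pooled.

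The replicate numbers were not shown to pair the mice: same-numbered arrays of different groups had a median residual correlation of 0.145 (-0.508 to 0.746 over 161 pairs), against -0.0318 for different numbers. With no replicate block Slc17a4 (adjusted p = 0.0699) and Slc2a4 (0.0817) kept their call, and Slc35b1 was at 0.132, Slc45a3 at 0.138, Slc1a3 at 0.148 and Slc2a12 at 0.174. Dim carriers are limited by signal over background, which the deposited values do not give.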
